A study of Mus musculus with 131 samples.

Results

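The genes described here are 8 glucose metabolism genes of mouse hepatocytes, Pklr, G6pc, Pck1, Fbp1, Slc2a2, Gys2, Tat and Gpd2. They were chosen by name among the 24397 genes of the expression table, and all 8 were found and passed the filter on low values. Expression was measured by RNA-Seq in FPKM, fragments scaled to transcript length and library size, in 18 hepatocyte libraries of C57Bl mice. Uninjected WT mice gave 1 library of 1 week, 3 of 3 weeks and 3 of 15 weeks, and the remaining 11 came from 15 week animals that had received Cre. Of these 11 libraries, 3 were DKO injected at 1 day and 2 were DKO injected at 3 weeks, with 3 injected controls labelled WT for each time.

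DKO mice carried floxed Tet2 and Tet3, which encode enzymes that oxidise 5-methylcytosine, and both they and the controls received AAV8 virus carrying Cre under the hepatocyte-specific Tbg promoter. Hepatocytes had been freed with collagenase, passed over a percoll gradient and sorted for lack of the leukocyte antigen CD45. Methylation was measured by whole-genome bisulfite sequencing (WGBS) in 1 newborn library (1 week), 1 adult WT library (15 weeks) and 1 DKO library (15 weeks, injected at 1 day), so those differences have no replicate check. Reduced representation bisulfite sequencing (RRBS) covered, at 15 weeks, 2 DKO mice and 3 injected controls for each injection time, and also 2 WT mice of 3 weeks, 2 mice with the insulin receptor deleted in hepatocytes after birth (InsR KO, age not given in the labels), 2 cultures grown in vitro from unsorted newborn liver cells, and 1 sample each of WT fat (25 weeks) and WT neutrophils (36 weeks). Peaks of ATAC-Seq and of the factor HNF6 came from 2 WT and 2 DKO libraries, whose labels name liver and give no age or injection time. Those of H3K27ac and H3K4me1 came from 1 library per genotype at 15 weeks (uninjected WT and DKO injected at 1 day). Those of 5hmC came from 1 WT hepatocyte library of 20 days.

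The liver takes up glucose after a meal and releases it during fasting. Slc2a2 encodes the glucose transporter GLUT2, Gys2 the liver glycogen synthase, and Pklr the pyruvate kinase that completes glycolysis in hepatocytes. Pck1, Fbp1 and G6pc encode the enzymes that carry gluconeogenesis around the irreversible steps of glycolysis, Tat encodes tyrosine aminotransferase, which feeds carbon from an amino acid into this route, and Gpd2 encodes the mitochondrial glycerol-3-phosphate dehydrogenase. Several of these genes are known to be switched on in the liver around birth, when the supply of glucose from the placenta ends.

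The stretches of DNA on which the methylation results turn are shown first. For Tat, Pck1 and Pklr these are the 200 bp tiles with the greatest fall in methylation between newborn and adult hepatocytes. They are read from the plus strand of mm9, with each CpG in capitals.
Tat, chr8:112524401-112524600, downstream of the gene: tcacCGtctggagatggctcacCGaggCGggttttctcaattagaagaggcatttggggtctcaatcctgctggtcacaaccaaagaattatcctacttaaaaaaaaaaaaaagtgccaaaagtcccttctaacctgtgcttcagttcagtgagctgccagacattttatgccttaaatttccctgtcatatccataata
Pck1, chr2:172983801-172984000, in a coding exon: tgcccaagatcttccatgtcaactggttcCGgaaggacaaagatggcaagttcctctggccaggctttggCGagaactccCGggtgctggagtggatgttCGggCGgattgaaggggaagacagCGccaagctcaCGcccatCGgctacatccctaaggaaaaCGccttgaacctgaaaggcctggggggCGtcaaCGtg
Pklr, chr3:88946601-88946800, over a coding exon: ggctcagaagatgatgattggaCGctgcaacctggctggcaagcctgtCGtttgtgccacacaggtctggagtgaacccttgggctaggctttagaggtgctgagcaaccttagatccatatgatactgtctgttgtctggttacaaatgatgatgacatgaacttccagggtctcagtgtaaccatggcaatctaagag
The Tat tile holds 3 CpGs, and it was methylated to 89.5% in the newborn, 0% in the adult and 66.7% in the DKO library. The Pck1 tile holds 11 CpGs and measured 81.0%, 9.83% and 77.4% in the same order. The Pklr tile holds 2 CpGs and measured 78.8%, 3.77% and 75.0%. At the Pck1 and Pklr tiles the DKO value stood near the newborn value, and at the Tat tile it lay between adult and newborn.

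The next sequences are the 3 regions in which both WT libraries and neither DKO library had an ATAC-Seq peak, which marks DNA open to a transposase. They are read from the plus strand of mm9, with each CpG in capitals.
Gpd2, chr2:57104109-57104251: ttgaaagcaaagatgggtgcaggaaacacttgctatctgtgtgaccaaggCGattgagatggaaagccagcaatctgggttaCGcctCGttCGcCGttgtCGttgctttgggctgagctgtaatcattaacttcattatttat
Gys2, chr6:142400031-142400267: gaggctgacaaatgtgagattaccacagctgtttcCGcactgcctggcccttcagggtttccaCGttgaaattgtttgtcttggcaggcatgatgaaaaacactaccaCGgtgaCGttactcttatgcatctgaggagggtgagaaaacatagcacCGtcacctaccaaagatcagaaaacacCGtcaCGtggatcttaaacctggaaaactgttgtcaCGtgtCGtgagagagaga
Pck1, chr2:172985426-172985568: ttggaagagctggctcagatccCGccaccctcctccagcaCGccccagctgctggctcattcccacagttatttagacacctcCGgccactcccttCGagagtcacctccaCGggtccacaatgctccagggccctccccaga
They hold 6, 9 and 5 CpGs, and their values stand with the peaks further on.

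The libraries were compared before the genes. Across the expression table, summed FPKM ranged from 281800 to 393800 per library, and WT 3 weeks replicate B was the lowest. Reads per library are not in this table, so the depth behind each value is unknown. Alb was at 0 in all 18 libraries, although the hepatocyte list summed to between 13300 and 23990 FPKM, so a 0 in this table need not mean that a gene is silent. No member was at 0 in any library. Xist was between 48.0 and 77.1 FPKM in the 3 libraries of 3 week WT and 88.1 in 1 control injected at 3 weeks, and at or near 0 elsewhere, so age and sex cannot be told apart between 3 and 15 weeks. Sex was also uneven in every comparison that used the controls injected at 3 weeks, and its part in them was not tested. Tet2 was 3.35 ± 0.650 FPKM (SD, n = 3) in DKO injected at 1 day against 1.55 ± 0.626 (n = 3) in their controls, and Tet3 was 2.39 ± 0.566 against 2.11 ± 0.436. Neither gene was lower there. With injection at 3 weeks Tet2 was 1.33 ± 0.720 FPKM (n = 2) in the DKO against 2.54 ± 0.453 (n = 3), and Tet3 1.61 ± 0.0758 against 2.63 ± 0.235. These values cover the whole gene, which includes the part that Cre does not remove. The 6 perivenous markers summed to between 147 and 301 FPKM in DKO injected at 1 day, against 1967 to 3183 in their controls, and the 7 periportal markers to between 4627 and 5409 against 4378 to 5118. Pck1 is among these 7, and the other 6 summed to between 4021 and 4270 FPKM against 3318 to 3548. In the WT library of 1 week the erythroid markers summed to 2433 FPKM and the fetal liver markers to 13260, where the adult groups held at most 70.7 and 5.98. Whether these shifts take part in any difference below was not tested, and fewer cells of a type cannot be told apart from less RNA per cell.

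Levels per transcript length were compared between the genes. In 15 week WT hepatocytes, Pck1 was the highest at 1293 ± 125 FPKM (SD, n = 3), followed by Tat at 1031 ± 221 and G6pc at 664 ± 64.8. Fbp1 stood at 365 ± 33.0, Slc2a2 at 124 ± 6.55, Pklr at 75.6 ± 23.1 and Gys2 at 67.9 ± 17.97. Gpd2 was lowest, at 7.25 ± 0.664 FPKM. The ranges of Pck1 and Tat overlapped, as did those of Pklr and Gys2. The spread within groups was widest for G6pc, whose pooled SD was 0.60 on the log2(FPKM + 1) scale, and narrowest for Fbp1, at 0.20, against a median of 0.18 over all genes tested.

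**Figure D1:**
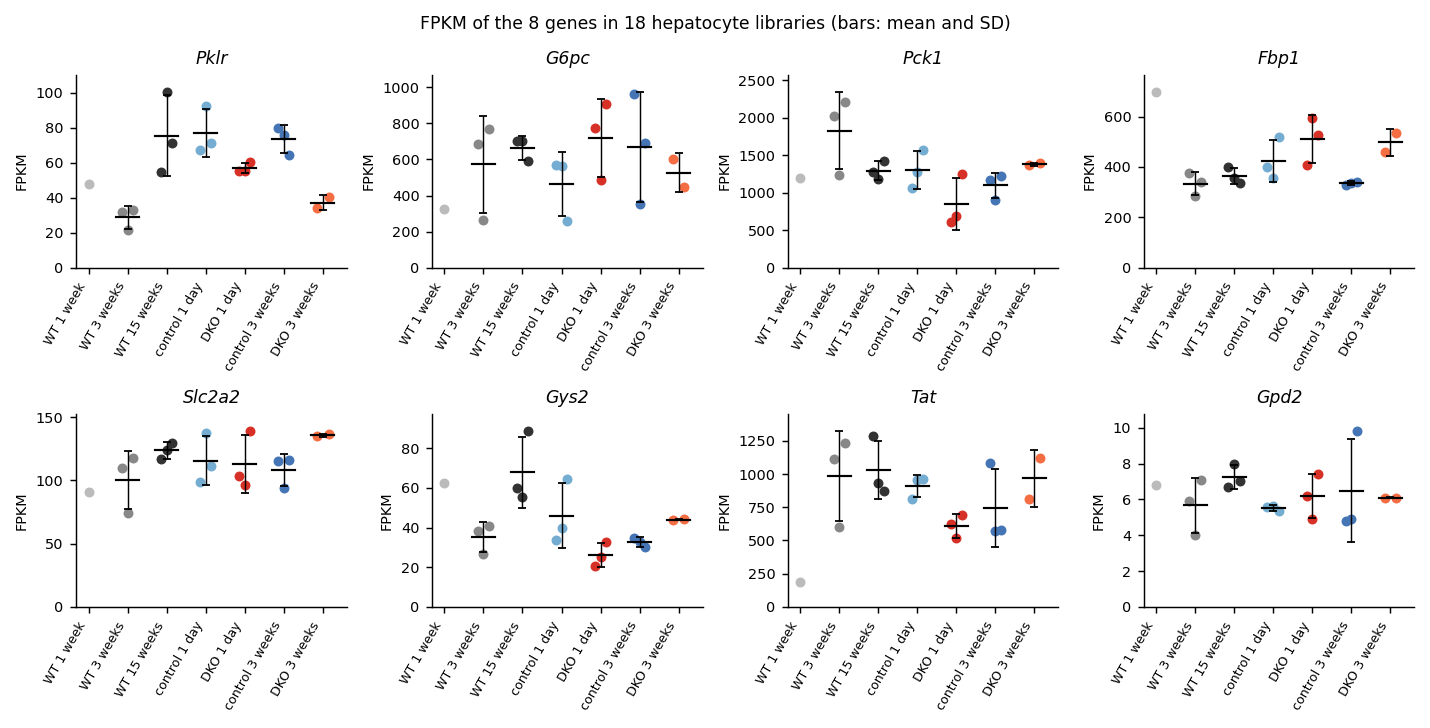
FPKM (vertical axes, linear from 0) of the 8 genes in each of 18 hepatocyte libraries by group (horizontal axes). Points are libraries and bars the group mean with its SD; the 3 libraries of 3 week WT lie below the 3 of 15 week WT for Pklr and Gys2, and the 1 week library is the lowest of all for Tat.

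The first comparison asked which of these genes changed between 3 and 15 weeks in WT hepatocytes. Pklr and Gys2 rose, and the other 6 did not pass the test. Over all 11166 genes tested by limma, 33.3% had an adjusted p under 0.05 in this comparison, so 2 of 8 members stood near that background.

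Pklr, the glycolytic pyruvate kinase, measured 31.6, 21.4 and 33.2 FPKM in the 3 week libraries and 54.9, 100.5 and 71.4 in the 15 week libraries. Every 15 week value was above every 3 week value. The difference was 1.35 ± 0.21 on the log2(FPKM + 1) scale (SE), with a limma adjusted p of 0.000277.

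Gys2, the liver glycogen synthase, measured 38.2, 26.7 and 41.0 FPKM at 3 weeks and 59.8, 55.4 and 88.5 at 15 weeks. The ranges again did not overlap. The difference was 0.92 ± 0.25 on the log2 scale, with a limma adjusted p of 0.0115. This call was lost without WT 3 weeks replicate B, at an adjusted p of 0.0533, and without WT 15 weeks replicate C, at 0.0523. The injected 15 week controls overlapped the 3 week range. They ran from 33.8 to 64.4 FPKM with injection at 1 day and from 30.0 to 34.9 with injection at 3 weeks.

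The gluconeogenic genes gave no call with age. Pck1 was 1828 ± 517 FPKM at 3 weeks and 1293 ± 125 at 15 weeks, a difference of -0.46 on the log2 scale with a 95% interval from -1.04 to 0.12. Fbp1 differed by 0.13, with an interval from -0.23 to 0.49. G6pc differed by 0.35, with an interval from -0.61 to 1.31, the widest of the 8. Tat differed by 0.11 and Slc2a2 by 0.32, and Gpd2 by 0.33, all with intervals that include 0. Scaling the libraries by their median ratio moved the median of all genes by -0.17 in this comparison and turned the share of calls that were higher from 72.0% to 49.2%. Under that scaling Pck1 was called lower, at an adjusted p of 0.0441, and the small values of Fbp1 and Tat turned to -0.08 and -0.10.

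Between 1 and 15 weeks only 1 library of the younger age could be used, so no test was made. A gene was counted where every 15 week library stood at least 1 log2 unit above or below it, which held for 5.74% of the genes tested in the upward direction and 8.62% in the downward direction. Of the 8 members, Tat met the upward rule and none met the downward rule. Tat was 187 FPKM at 1 week and 1284, 935 and 874 at 15 weeks, and the mean difference was 2.43 on the log2 scale. By 3 weeks it already stood at 1115, 600 and 1237 FPKM. G6pc missed the rule narrowly, with differences from 0.86 to 1.11 over the 3 libraries. Fbp1 was highest in the 1 week library, at 698 FPKM, and its differences ran from -1.05 to -0.80. Pklr and Gys2 were lower at 3 weeks than in the 1 week library in all 3 libraries, by means of 0.75 and 0.83 on the log2 scale, in a library that also carried the erythroid and fetal liver markers given above.

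Deletion of Tet2 and Tet3 at 1 day was compared with injected controls at 15 weeks. Gys2 was lower and no other member passed the test. Of all genes tested, 20.0% were called in this comparison, so 1 of 8 members stood below the background share.

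Gys2 measured 20.6, 25.2 and 32.8 FPKM in the DKO and 33.8, 39.6 and 64.5 in the controls. The highest DKO library lay just under the lowest control. The difference was -0.76 ± 0.25 on the log2 scale, with a limma adjusted p of 0.0454. The call lay close to the threshold and was kept in 4 of 11 alternatives, with adjusted p from 0.0332 to 0.219.

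Tat measured 622, 516 and 694 FPKM in the DKO and 812, 954 and 967 in the controls. The ranges did not overlap, but the difference of -0.58 ± 0.29 had an adjusted p of 0.176. Pklr measured 55.2, 55.2 and 60.5 FPKM against 67.4, 92.7 and 71.1. Its ranges did not overlap either, and the difference of -0.42 ± 0.21 had a limma adjusted p of 0.175.

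Pck1 measured 606, 690 and 1252 FPKM in the DKO and 1059, 1278 and 1570 in the controls. A single DKO library reached into the control range, and the difference of -0.67 ± 0.27 had a limma adjusted p of 0.0950. Fbp1 was 510 ± 95.6 FPKM against 424.6 ± 83.55, and G6pc 721 ± 216 against 462 ± 179, with overlapping ranges. Slc2a2 differed by -0.04, with an interval from -0.44 to 0.35, and Gpd2 by 0.12, with an interval from -0.36 to 0.60.

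In this comparison scaling moved the median of all genes by 0.14 and the share of calls that were higher from 21.7% to 50.9%. Under it Gys2 lost its call, at an adjusted p of 0.0821, Fbp1 was called higher, at 0.0294, and the value of Slc2a2 turned to 0.13.

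Deletion at 3 weeks gave a call for Pklr. The background share was 5.25% of the genes tested. Pklr measured 34.0 and 40.2 FPKM in the 2 DKO libraries and 80.0, 76.1 and 64.4 in the controls. Both DKO libraries lay below every control. The difference was -0.97 ± 0.23 on the log2 scale, with a limma adjusted p of 0.0341, and the call was kept in 4 of 10 alternatives, with adjusted p from 0.0256 to 0.168.

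Fbp1 measured 461 and 535 FPKM in the DKO and 329, 338 and 342 in the controls. The ranges did not overlap, and the difference of 0.56 ± 0.19 had a limma adjusted p of 0.0885, which scaling moved to 0.0165. Gys2 measured 43.8 and 44.3 FPKM against 34.9, 32.9 and 30.0, a difference of 0.43 ± 0.28 with an adjusted p of 0.346. Slc2a2 and Pck1 also lay above all controls without passing the test, at 0.33 ± 0.21 and 0.34 ± 0.30. G6pc, Tat and Gpd2 overlapped with their controls. Scaling moved the share of calls that were higher from 17.2% to 51.7% over all genes.

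The difference between the effects of early and late deletion was tested directly. No member passed limma's adjusted p of 0.05, where 5.36% of all genes did, and 3 had an unadjusted p under 0.05. Gys2 came nearest, at -1.18 ± 0.37 on the log2 scale with an adjusted p of 0.0654. Tat differed by -1.01 ± 0.44, with an adjusted p of 0.146, and Pck1 by -1.01 ± 0.41, with 0.120. For Pklr the difference was 0.55 ± 0.31, with an adjusted p of 0.254. Libraries scaled by the median ratio gave an adjusted p of 0.0409 for Gys2.

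Injected controls were set beside uninjected 15 week WT to show how levels stand after injection without the deletion. Both groups are labelled WT, so the floxed line without Cre was not covered. By limma 0 of 8 members were called, against 0.331% of all genes, and 1 member had an unadjusted p under 0.05. This was Gys2, at 67.9 ± 17.97 FPKM in uninjected WT against 45.9 ± 16.3 and 32.6 ± 2.43 in the controls of 1 day and 3 weeks, with an adjusted p of 0.177.

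**Figure D2:**
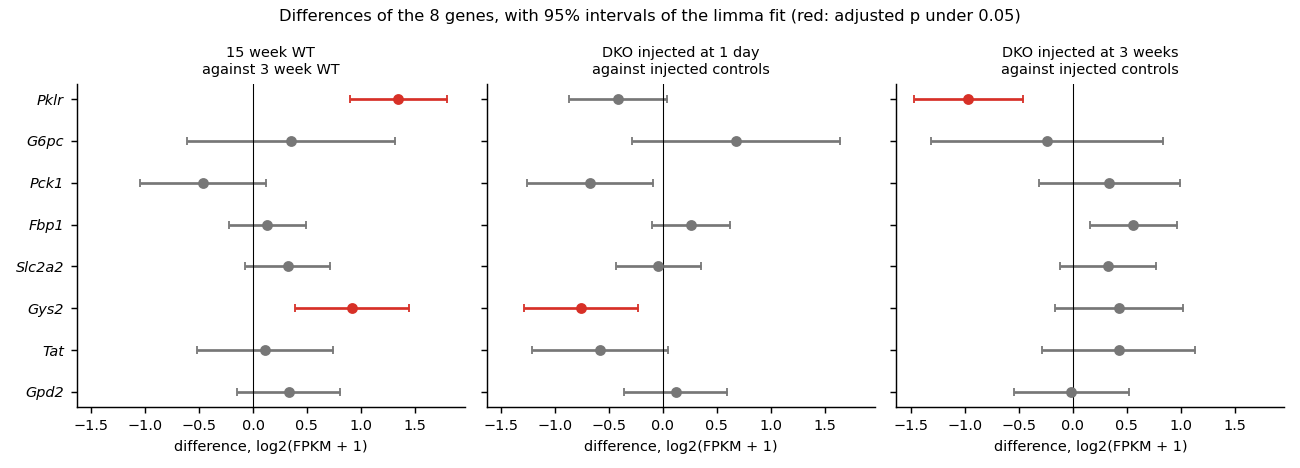
Differences of the 8 genes on the log2(FPKM + 1) scale (horizontal axes) in 3 comparisons, as points with 95% intervals of the limma fit. Red marks an adjusted p under 0.05, which holds for Pklr and Gys2 with age, Gys2 in DKO injected at 1 day and Pklr in DKO injected at 3 weeks.

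The neighbouring pathway genes were taken from lists of 134 genes, of which 115 were tested. In DKO injected at 1 day 3 of the 115 were higher and 24 lower, 23.5% in all, with a median of -0.17. Over all genes tested, 20.0% were called there, 4.33% higher and 15.6% lower, with a median of -0.11. Between 3 and 15 weeks 29 were higher and 14 lower, or 37.4%, where 24.0% of all genes were higher and 9.32% lower. In DKO injected at 3 weeks 3 were higher and 4 lower, or 6.09%, against 0.905% and 4.34% of all genes. These shares lay close to those of all genes, so they are no result about the lists as a whole. Perivenous markers were lower in the same DKO libraries of 1 day, as given above, and their part in these counts was not tested.

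Breakdown of tyrosine and related amino acids had the lowest list median in DKO injected at 1 day. Of its 11 genes 6 were lower and none higher, with a median of -0.68, where 15.6% of all genes were lower and the median was -0.11. Prodh, proline dehydrogenase, fell by 2.68 ± 0.17 on the log2 scale (SE), Hpd, the enzyme after Tat in tyrosine breakdown, fell by 1.25 ± 0.24, and Got1, aspartate aminotransferase, fell by 1.19 ± 0.29. In DKO injected at 3 weeks no gene of this list was called.

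Among genes of glycerol handling and the shuttles that move reducing power into mitochondria, where Gpd2 acts, 4 of 6 were lower in DKO injected at 1 day, a count from few genes to set beside the 15.6% of all genes. Gpd1, the cytosolic partner of Gpd2, fell by 0.97 ± 0.21, Aqp9, a glycerol channel, fell by 0.89 ± 0.19, and Slc25a13, an aspartate-glutamate carrier, fell by 0.51 ± 0.16. Gpd2 itself was not called. The gluconeogenesis list had 2 genes higher and 3 lower of 13, which is few to set beside 4.33% and 15.6% of all genes. Of these, Got1 is given above, Gpt, alanine aminotransferase, fell by 0.67 ± 0.21, and Slc25a1, the citrate carrier, fell by 0.51 ± 0.12.

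For pentose phosphate, fructose and galactose, 1 gene was higher and 4 lower of 13 in DKO injected at 1 day, with a list median of -0.14. Over all genes, 4.33% were higher and 15.6% lower there. Sord, sorbitol dehydrogenase, fell by 1.34 ± 0.19, Taldo1, transaldolase, fell by 0.77 ± 0.17, and Galk1, galactokinase, fell by 0.63 ± 0.15. Between 3 and 15 weeks 7 of these 13 genes were higher and 1 lower, which is few to set beside 24.0% and 9.32% of all genes. Age and sex cannot be told apart in that comparison. Glucose transport had 4 genes tested, of which the fructose transporter Slc2a5 fell by 1.21 ± 0.13.

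Glycolysis, glycogen metabolism and the control of pyruvate entry each had 1 gene lower in DKO injected at 1 day, of 15, 18 and 12 tested, none above the 15.6% of all genes. These were Tpi1, triosephosphate isomerase, at -0.66 ± 0.17, the glycogen-binding Stbd1 at -0.92 ± 0.21 and the pyruvate dehydrogenase kinase Pdk2 at -0.61 ± 0.19. With age, Stbd1 rose by 1.65, the branching enzyme Gbe1 by 1.25 and Phkb, a subunit of phosphorylase kinase, by 0.95. Pfkfb3, which makes an activator of glycolysis, rose by 2.86 and Pdk4 fell by 2.38 between 3 and 15 weeks. Pfkfb3 stood at 1.64 FPKM in 3 week WT and 20.0 in uninjected 15 week WT. In the 15 week controls injected at 1 day and 3 weeks it was 2.97 and 2.73 FPKM. A rise of this size was thus seen only in uninjected WT. Of 25 regulators, 4 were lower in DKO injected at 1 day, with a list median of 0.01, so their share stood near that of all genes. Among the 4 were Cebpb at -0.89 ± 0.16, Hnf4a at -0.64 ± 0.20 and Nr1h3 at -0.44 ± 0.12.

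The genes whose log2 levels ran most closely with a member over the 18 libraries are given as a description, since the libraries share groups. For Tat the nearest was Klf15, with a Pearson r of 0.91, for Gpd2 it was Cpt1a, at 0.90, and for Pck1 it was Nr1i2, at 0.90. Fbp1 ran with Apoc2, at 0.95, and Pklr with Birc3, at 0.92. For Gys2 the nearest was Triobp, at 0.88, for G6pc Atad3a, at 0.85, and for Slc2a2 Slc25a47, at 0.81. Pairs of members ran from -0.46 for Fbp1 and Tat to 0.57 for Slc2a2 and G6pc. Each nearest gene was the highest of all genes tested and the pairs were not picked, so these are not like values.

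Methylation was examined in 200 bp WGBS tiles inside each gene and 5000 bp around it. A tile was called lost where the adult value lay at least 35 percentage points below the newborn value. Of 1442 member tiles 168 were lost, or 11.7%, against 1.63% of 8049849 tiles of the genome, and 8 had gained methylation by the same limit, against 0.262%. Coverage per tile is not in the table beyond a minimum, so the precision of single tiles is unknown.

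The loss was uneven between the genes. Tat lost 43 of 84 tiles, or 51.2%, and Pck1 35 of 71, or 49.3%. Among 22734 genes with at least 20 tiles, 6 had a higher share than Tat and 12 a higher share than Pck1, where the median gene had 1% and the 90th percentile was 6.25%. G6pc lost 17 of 79 tiles, Fbp1 23 of 143, Slc2a2 23 of 155 and Pklr 11 of 95, which all lay above that percentile. Gpd2 lost 14 of 591 and Gys2 2 of 224, and Gys2 was the only member that gained more tiles, 4, than it lost.

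The lost tiles of Tat and Pck1 formed long runs inside the gene. In Tat 12 neighbouring tiles at chr8:112517801-112520200, over coding exons and introns, had mean methylation of 85.5% in the newborn, 13.2% in the adult and 76.1% in the DKO library. In Pck1 8 tiles at chr2:172979001-172980600 had 61.6%, 3.79% and 62.2%. Over all members, 26.4% of coding exon tiles were lost, 8.21% of intron tiles and 14.9% of promoter tiles. These shares pool unequal genes, since 26 of the 37 lost coding exon tiles lay in Pck1 and Tat, and over the other 6 genes they were 10.3%, 6.62% and 8.82%. Lost tiles held a median of 3 CpGs and the others 2 when pooled, a gap that no single gene showed. Both medians were 3 in Tat, 4 in Pck1 and 2 in G6pc, Fbp1, Slc2a2, Gys2 and Gpd2. In Pklr the lost tiles had 2 and the others 4. Of the 23 lost tiles of Slc2a2, 21 overlap the annotated gene 1700112D23Rik, and 3 of the 11 of Pklr overlap Hcn3, so these cannot be assigned to either gene alone.

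**Figure D3:**
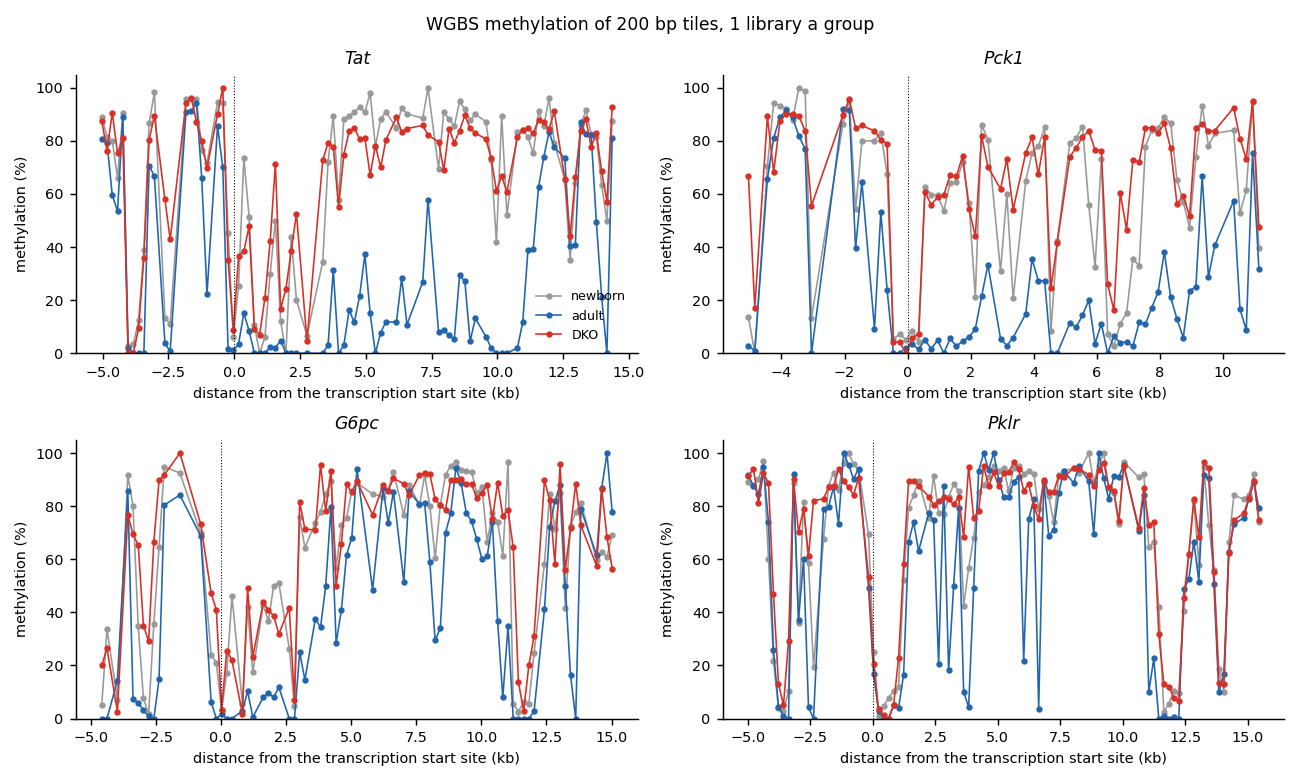
Methylation in percent (vertical axes) of 200 bp WGBS tiles by distance from the transcription start site in kb (horizontal axes) for Tat, Pck1, G6pc and Pklr in 1 newborn, 1 adult and 1 DKO library. Adult values (blue) fall below newborn values (grey) over most of Tat and Pck1, where 43 of 84 and 35 of 71 tiles were lost, and the DKO values (red) run near the newborn ones.

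In the DKO, methylation at these tiles stood near the newborn level. Over the 168 lost tiles the mean was 73.8% in newborn, 17.2% in adult and 72.7% in DKO. The DKO value was at least 35 points above the adult value in 147 of 168 tiles, or 87.5% (exact binomial 95% interval 81.5 to 92.1, for counting error only). Over the lost tiles of the genome the share was 70.6%. Many member tiles are neighbours and all share the same DKO library, so the interval is no test against the genome's share. The genome's lost tiles had 77.1% in newborn, 26.3% in adult and 72.7% in DKO. Their higher adult mean makes a fixed rise of 35 points harder to reach, so the shares are not like values. The adult value chose the tiles, so both shares are a description.

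The share varied between the genes. In Pck1 35 of 35 lost tiles were at least 35 points higher in the DKO, in Tat 40 of 43, in Slc2a2 22 of 23 and in Fbp1 18 of 23. G6pc had 12 of 17, Pklr 9 of 11, Gpd2 9 of 14 and Gys2 2 of 2. The DKO values also rose outside the lost tiles. Of 1274 member tiles that were not lost, 85 were at least 35 points higher in the DKO than in the adult, or 6.67%, against 0.842% of the genome, and 0 were as much lower, against 0.244%. In 29 the DKO stood at least 35 points above both newborn and adult, against 0.242%, of which 10 lay in Fbp1 and 6 in Pck1. A Pklr tile at chr3:88937601-88937800, upstream of the gene, had 19.2% in the newborn, 0% in the adult and 82.1% in the DKO library.

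**Figure D4:**
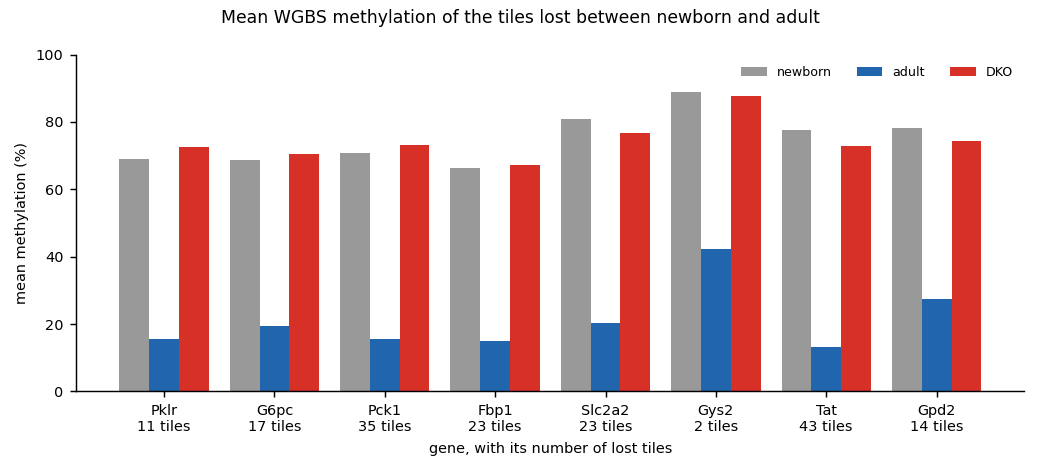
Mean methylation in percent (vertical axis, from 0) over the lost tiles of each gene (horizontal axis, with the number of tiles) in 1 newborn, 1 adult and 1 DKO library. For all 8 genes the DKO bar is near the newborn bar, for example 73.3% and 70.9% in Pck1 and 72.8% and 77.6% in Tat; adult values chose the tiles.

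RRBS gave values in separate mice that had no part in choosing the tiles. Only 20 of 213 RRBS tiles of 100 bp at these genes lie in lost WGBS tiles, and fewer have a value in every mouse compared. With 2 mice against 3 the smallest p that an exact permutation test can give is 0.1, so no comparison here can reach 0.05.

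In DKO injected at 1 day, 4 tiles of Pck1 and Fbp1 could be compared. Their mean was 59.6% and 51.4% in the DKO mice and 1.53%, 4.69% and 2.21% in the controls. Both DKO mice lay far above all controls. The difference was 52.7 points, with a two-sided exact permutation p of 0.1, and it was 55.0 points over the 4993 lost tiles of the genome. Every DKO mouse was above every control in 4 of 4 tiles, against 90.4% of those of the genome. In Pck1 the tile at chr2:172984701-172984800, in an untranslated exon, had 84.8% and 83.3% in the DKO mice and 0% in each control.

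The whole of these loci gave the same order with smaller differences. Over 83 tiles the DKO mice had 58.1% and 56.7% and the controls 46.9%, 47.7% and 44.6%, a difference of 11 points (exact p = 0.1). Tat had 2 such tiles, at 96.1% and 95.8% in the DKO mice and 80.0%, 69.6% and 69.4% in the controls. G6pc had 6, at 96.7% and 96.3% against 77.2%, 83.3% and 75.5%.

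In DKO injected at 3 weeks the gap was smaller over the tiles that could be compared. Over 3 tiles the DKO mice had 25.0% and 14.3% and the controls 0%, 0% and 3.03%, a difference of 18.6 points (exact permutation p = 0.1), against 34.0 points over the genome. Every DKO mouse was above every control in 2 of 3 tiles, against 74.6% of 4390 tiles of the genome. At the same Pck1 tile the DKO mice had 52.2% and 25.7%, the controls 0%, 0% and 9.09%, and 3 week WT mice already 0% and 3.70%. The other Pck1 tile read 0% in the 3 week WT mouse with a value, and the Fbp1 tile 1.04% and 0%. All 3 tiles were thus low in WT at the age of this injection. The genome's tiles were not split by time of loss, so the 34.0 points are not a like value. Whether the effects at 1 day and 3 weeks differ at these tiles was not tested.

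InsR KO mice were compared with the controls injected at 1 day to ask whether loss of the insulin receptor acts on the same sites. Over 2 tiles, 1 in Pck1 and 1 in Fbp1, the InsR KO mice had 6.25% and 0% and the controls 3.05%, 0% and 0%. The ranges overlapped, and the difference of 2.11 points (exact permutation p = 0.7) turned to -1.02 without InsR KO replicate A. No tile had every InsR KO mouse above every control, against 56.3% of 2899 lost tiles of the genome, where the difference was 21.6 points. In 3 week WT the Pck1 tile already read 0% in the mouse with a value, and the Fbp1 tile 1.04% and 0%. The paper places the effect of receptor loss almost only at sites demethylated later than this age. These tiles therefore cannot show whether it acts on late sites of these genes. The genome's tiles were not split by time of loss, so their values are not like values. Over all 56 member tiles the InsR KO mice had 48.7% and 46.9% and the controls 46.5%, 46.2% and 45.0% (exact p = 0.1). Such few tiles leave differences at the other lost sites of these genes unmeasured.

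Hepatocytes grown in vitro were compared with 3 week WT mice, the youngest that could be used. Over 2 tiles, in Fbp1 and Slc2a2, the cultures had 89.3% and 66.2% and the mice 50.5% and 50.0%. The difference was 27.5 points (exact permutation p = 0.333, the smallest possible with 2 against 2), and 16.9 points over the genome. Every culture was above every mouse in 1 of 2 tiles, against 49.9% of the genome's. This was the Fbp1 tile at chr13:62988701-62988800, in an intron, with 78.6% and 32.5% in the cultures and 1.04% and 0% in the mice, 49.1% in fat and 100% in neutrophils. The Slc2a2 tile read 100% in every culture and mouse compared, and 90% to 100% in the adult controls with a value. The mean difference therefore rests on the Fbp1 tile alone. The cultures came from newborn cells, while the mice were 3 weeks old. WGBS of the newborn read 40.5% over the 200 bp tile that holds this Fbp1 tile. A gain in culture cannot be told apart here from a loss in the mice by 3 weeks.

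**Figure D5:**
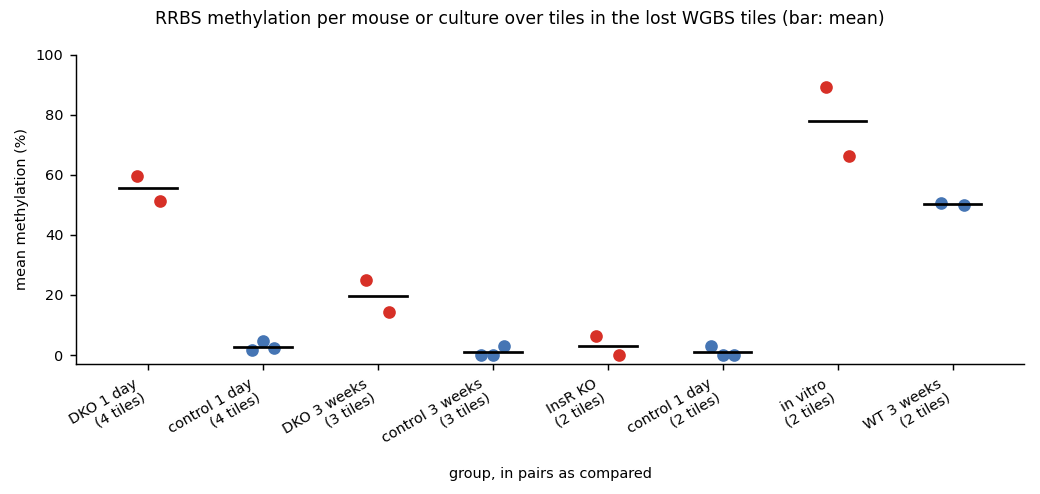
Mean RRBS methylation in percent (vertical axis) per mouse or culture over the tiles in lost WGBS tiles of the 8 genes, by group in pairs as compared (horizontal axis, with the number of tiles). Points are mice or cultures and bars the group means; DKO mice injected at 1 day sit at 59.6% and 51.4% above controls at 1.53% to 4.69%, while InsR KO mice overlap their controls.

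Peaks called per library were then set on the same tiles, with an overlap of at least 1 bp. H3K27ac, a mark of active enhancers and promoters, covered 137 of the 168 lost tiles in WT, or 81.5%, against 34.1% of the lost tiles of the genome. In the DKO it covered 122, or 72.6%, against 31.6%. Most of the difference lay in Tat, with 40 tiles in WT and 28 in DKO. There 1 broad peak ended at position 112523531 in WT and 112521203 in the DKO library, with signals of 1397.5 and 1239.4. Most of the tiles that differed lie between these called ends, so they are not separate sites. H3K4me1, which marks enhancers more broadly, covered 96 tiles in WT and 89 in DKO, or 57.1% and 53.0%, close to the genome's 54.6% and 50.8%. Both marks rest on 1 library per genotype. With only the upper 50% of peaks by score, the WT minus DKO difference went from 8.93 to 25.0 points for H3K27ac and turned from 4.17 to -14.3 points for H3K4me1.

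Peaks of 5hmC, the first product of Tet enzymes, covered 64 of the lost tiles in WT hepatocytes of 20 days, or 38.1%. The share was 19.8% of lost tiles of the genome and 18.8% of the other member tiles. Pck1 had 22 of its 35 lost tiles in such peaks and Tat 16 of 43. With the upper 50% of peaks the share over the members fell to 16.7%.

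ATAC-Seq peaks covered 2 and 6 of the 168 lost tiles in the WT libraries, or 1.19% and 3.57%, against 5.05% and 6.87% of the lost tiles of the genome. In the DKO libraries they covered 3 and 3, or 1.79% each, against 3.91% and 4.88%. At the members 39 ATAC-Seq regions were found in at least 1 library, of which 18 were present in all 4, 3 in both WT and neither DKO, and 0 in both DKO and neither WT. Of 84705 such regions of the genome, 35.5% were present in all 4 libraries, 2.96% in both WT and neither DKO, and 5.04% in both DKO and neither WT. The member counts are few and were not tested against the genome. The 3 are the regions printed above, and none of them overlaps a lost tile.

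The 3 regions had low methylation in adult and higher methylation in DKO hepatocytes. The Gpd2 region, 14137 bases after the start site, had peak signals of 8.52 and 10.9 tags per 10000000 in the WT libraries, and its tiles had 39.6% in newborn, 17.0% in adult and 61.2% in DKO. The Gys2 region, 21483 bases after its start, had signals of 4.80 and 3.69, and methylation of 20.8%, 5.98% and 63.2%. The Pck1 region, 6948 bases after its start, had signals of 17.6 and 10.5, and methylation of 15.0%, 4.35% and 46.6%. Each DKO library had 1 peak beside the Pck1 region, centred 6508 or 7143 bases after the start.

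HNF6, a liver transcription factor, had peaks in 3 and 9 lost tiles in the WT libraries, or 1.79% and 5.36%, against 1.12% and 1.91% of the lost tiles of the genome. In the DKO libraries it had peaks in 7 and 10, or 4.17% and 5.95%, against 1.36% and 4.08%. These libraries were uneven, with 4387 and 9355 peaks in WT and 9305 and 34665 in DKO, so the genotypes cannot be compared by their number of peaks. A region at the start of Slc2a2 had a peak in all 4 libraries, with signals of 10.9 and 34.3 tags per 10000000 in WT and 31.0 and 99.0 in DKO. The 100 bases before that start, read from the plus strand of mm9 with the letters ATTGAT and their reverse complement in capitals, are shown because the HNF6 peak is centred there.
Slc2a2, chr3:28596725-28596824: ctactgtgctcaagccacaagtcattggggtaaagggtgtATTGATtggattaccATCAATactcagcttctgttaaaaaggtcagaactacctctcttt
The letters ATTGAT, searched on both strands, occur in the RefSeq promoters (250 bases before to 50 after the start) of Slc2a2, G6pc and Gpd2 among the 7 members found in that table, and in 7.54% of 32851 promoters. They hold no CpG, and the Slc2a2 stretch has none, so no methylation was measured on it.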

How the data were processed

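The members and the gene lists were chosen with earlier results of these data known. The authors made the FPKM values with cutadapt, TopHat2 and Cufflinks and deposited them for 24397 genes. They deposited the fraction of methylated CpG readings per tile on mm9, after BSMAP, with coverage minimums of 10 (RRBS, 100 bp) and 15 (WGBS, 200 bp) readings, here multiplied to percent. HOMER peak files hold a deposited score and a signal, the normalised tag count per 10000000 tags. A further 49 sample columns were left unused, since no single group matched their names. Where an RRBS column gave nothing but the number of an animal, the group came from the expression column with that number, a link that rests on the numbers alone.

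Genes with a group mean of at least 1 FPKM (11166) were tested with limma 3.58.1 (R 4.3.3) on log2(FPKM + 1) over 18 libraries in 1 fit, with a trended prior and Benjamini-Hochberg adjustment; fold changes on this scale understate those of low genes. Each mouse entered the two-sided exact permutation tests of RRBS with its mean over tiles (scipy 1.17.1). WGBS and peaks were described without a test. The labels do not say that replicates are separate animals, although the columns carry different animal numbers, so p-values measure only the spread between these samples. All 8 members were named, and at most 3 genes per list, taken by size among those called in DKO injected at 1 day and then with age. Coordinates are mm9. The limma step was tested on simulated data.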

Additional observations from a re-analysis of the deposited data

Results flagged for a closer look

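In limma's test of the difference between early and late deletion effects, 2 of the 115 list genes were higher and 8 lower, or 8.7%. Over all genes 5.36% were called. The genes named above include 6 of these list genes. The difference was -2.54 on the log2 scale for Prodh (adjusted p = 0.000186), -1.70 for Stbd1 (0.0205), -1.39 for Sord (0.0308), -1.31 for Hpd (0.0492), -1.30 for Cebpb (0.0223) and -1.09 for Slc2a5 (0.0206). All 6 had been named because they were called in DKO injected at 1 day, where they and the perivenous markers were lower. None of the 6 was called in DKO injected at 3 weeks. None of the 8 members passed this test. No group had more than 3 samples, so no sample was tested as standing apart from its group.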

How the results depend on the processing

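The call of Pklr with age held in 11 of 11 alternatives. Members called in DKO injected at 1 day went from 1 to 0 with no filter on low values or with only the compared groups in the fit. In DKO injected at 3 weeks the count went from 1 to 0 under both, and to 2 with scaled libraries, which moved that of the difference of effects from 0 to 1. Scaling reversed Fbp1 (-0.078) and Tat (-0.098) with age, Slc2a2 (0.134) in DKO injected at 1 day and Gpd2 (0.084) in DKO injected at 3 weeks. Leaving out 1 library at a time gave 1 to 2 members called with age, 0 to 2 in DKO injected at 1 day, 0 to 1 in DKO injected at 3 weeks and 1 to 2 past the limit against 1 week. It moved G6pc (-0.134 to 0.633) and Tat (-0.209 to 0.313) with age, Slc2a2 (-0.199 to 0.087) and Gpd2 (-0.0009 to 0.249) in DKO injected at 1 day, G6pc (-0.645 to 0.081) and Gpd2 (-0.168 to 0.283) in DKO injected at 3 weeks, Gpd2 in the difference of effects (-0.163 to 0.288), and Pklr (-0.179 to 0.252) and Fbp1 (-0.030 to 0.117) in injected controls against WT, across 0. InsR KO minus control ran from -1.02 to 5.23 points. Over all genes, calls ran from 884 to 2804 (main 2228) in DKO injected at 1 day, 28 to 1343 (586) in DKO injected at 3 weeks, 30 to 2248 (599) for the difference and, with 1 library left out, 2 to 102 (37) for the injected controls. A limit of 25 points gave 75.0% of lost tiles raised in the DKO, and one of 50 points gave 108 tiles and 97.2%. The upper 50% of peaks gave a WT minus DKO difference of 25.0 points for H3K27ac and -14.3 for H3K4me1, against 8.93 and 4.17, and 16.7% for 5hmC. The causes were not tested. No paired analysis was possible because the columns carry animal numbers and not the replicate numbers of the labels. Depth is unknown for FPKM and for single tiles, and 2 mice against 3 cannot pass an exact test at 0.05.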
